A study of Mus musculus with 6 samples.

Results

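Transcripts of the EGF family were followed in primary mouse uterine stromal cells that carried or lacked Pbrm1. The genes were listed by name for their place in the family, with earlier results of these data known. They comprise 6 ligands (Areg, Ereg, Hbegf, Btc, Tgfa and Nrg1), 3 receptors (Egfr, Erbb2 and Erbb3) and 1 intracellular inhibitor (Errfi1), which makes 10 of the 54232 genes in the count table. All 10 had counts in every library and all were among the 17474 genes that entered the test. Cells came from uteri of mice aged 8 to 12 weeks at day 4 of pseudopregnancy, and each genotype (WT and Pbrm1 cKO) gave 3 libraries. The labels name the control group WT, whereas the methods of the study name mice with floxed Pbrm1 alleles (Pbrm1 fl/fl) and no Cre in the genotype. The study calls such mice littermate controls where it describes its matings. Pbrm1 cKO mice carried the same floxed alleles with Cre expressed from the progesterone receptor gene (PR IRES-cre), which is active in stroma but also in other cells that make this receptor, such as uterine epithelium and the corpus luteum. The sample labels give the time as pregnancy, whereas the protocol in the labels says pseudopregnant, and that protocol names WT horns for all samples, Pbrm1 cKO included. According to the labels, 5 to 10 horns were pooled for a preparation, the cells were plated for 4 h, and RNA was taken 2 h after fresh medium was added. A figure legend of the study calls the 3 replicates biological. No label says whether replicates were separate pools of animals, so the p-values measure the spread between these libraries. Pbrm1 encodes a bromodomain subunit of the SWI/SNF chromatin remodeler.

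Ligands of the EGF family are made as membrane-anchored precursors and released by metalloproteases of the ADAM family. Amphiregulin (Areg), epiregulin (Ereg), HB-EGF (Hbegf), betacellulin (Btc) and TGF-alpha (Tgfa) bind EGFR, some of them also ERBB4, whereas neuregulin 1 (Nrg1) binds ERBB3 and ERBB4. Bound receptors pair with each other or with ERBB2, which has no known ligand, and signal through RAS, ERK and PI3K. In the mouse uterus the ligands are best known around implantation, when Areg is induced by progesterone in the luminal epithelium and Hbegf appears in epithelium facing the blastocyst.

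Promoters are given first for called genes and for Errfi1, as far as entries were read, since the results refer back to them. The RefSeq promoters read here (GRCm38.p6) are not all that RefSeq holds. They gave an entry for 6 of the 10 genes (Areg, Btc, Tgfa, Egfr, Erbb2 and Errfi1). Shown are 250 bases before the annotated start on the strand of the gene, from 5′ to 3′. Capitals mark matches on either strand to the cAMP response element TGACGTCA, the GC box GGGCGG and the TATA box TATAAA, and the AP-1 motif TGANTCA was searched as well. Areg is at chr5:91139349-91139598 (plus strand), Btc at chr5:91402995-91403244 (minus strand), Tgfa at chr6:86194972-86195221 (plus strand) and Egfr at chr11:16751953-16752202 (plus strand). For Errfi1 the start with motif matches is shown, at chr4:150854820-150855069 (plus strand). The first 3 belong to ligands that were lower in Pbrm1 cKO cells, the fourth to the receptor that was higher and the last to the inhibitor, whose level did not pass the test.
Areg: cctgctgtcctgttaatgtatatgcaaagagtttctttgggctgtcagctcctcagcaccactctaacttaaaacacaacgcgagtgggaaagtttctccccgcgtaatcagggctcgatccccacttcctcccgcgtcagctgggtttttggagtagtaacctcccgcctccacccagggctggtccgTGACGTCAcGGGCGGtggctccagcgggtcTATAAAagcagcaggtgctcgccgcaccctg
Btc: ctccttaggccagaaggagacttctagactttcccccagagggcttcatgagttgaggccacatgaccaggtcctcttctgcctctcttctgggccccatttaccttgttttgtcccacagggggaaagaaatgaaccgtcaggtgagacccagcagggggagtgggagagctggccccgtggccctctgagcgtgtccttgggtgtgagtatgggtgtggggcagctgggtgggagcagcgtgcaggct
Tgfa: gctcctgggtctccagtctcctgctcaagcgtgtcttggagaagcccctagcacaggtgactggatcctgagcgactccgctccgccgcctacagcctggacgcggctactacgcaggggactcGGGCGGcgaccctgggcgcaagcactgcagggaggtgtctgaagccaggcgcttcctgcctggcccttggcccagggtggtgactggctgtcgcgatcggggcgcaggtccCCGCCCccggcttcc
Egfr: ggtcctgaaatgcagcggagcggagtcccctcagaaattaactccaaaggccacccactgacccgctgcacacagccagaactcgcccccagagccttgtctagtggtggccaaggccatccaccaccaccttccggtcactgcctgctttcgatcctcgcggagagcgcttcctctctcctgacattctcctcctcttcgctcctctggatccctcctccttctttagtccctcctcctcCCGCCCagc
Errfi1: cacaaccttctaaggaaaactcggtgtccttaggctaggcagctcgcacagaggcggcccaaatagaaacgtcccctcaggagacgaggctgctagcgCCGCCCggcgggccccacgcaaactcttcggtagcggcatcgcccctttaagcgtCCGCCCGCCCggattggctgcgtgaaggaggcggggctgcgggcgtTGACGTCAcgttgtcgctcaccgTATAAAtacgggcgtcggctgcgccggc

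Across 32851 mouse promoters of this length, 1.55% held the cAMP response element, 32.7% the GC box, 12.4% the TATA box and 6.75% the AP-1 motif. In Areg the cAMP response element began 61 bases before the start, the GC box 52 bases and the TATA box 31 bases before it. Errfi1 had the same 3 motifs, with the cAMP response element at 51 and the TATA box at 28 bases before the start, and 3 GC boxes of which 2 share bases. This window was chosen for its matches and lies inside the annotated gene, and the window before the other RefSeq start of Errfi1 (chr4:150853546-150853795) held none of the motifs. GC boxes alone were found in Tgfa (126 and 15 bases before the start) and in Egfr (9 bases). These letters were not in the Btc window, and the AP-1 motif was in none of the 5 windows. Areg and Errfi1, the 2 genes shown with the cAMP response element, had different readings, described further on.

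Of the 10 genes, 4 were lower in Pbrm1 cKO cells (Areg, Ereg, Btc and Tgfa), 2 were higher (Hbegf and Egfr) and 4 did not pass the threshold (Nrg1, Erbb2, Erbb3 and Errfi1). All 4 lower genes were ligands of EGFR, at 32.1% to 43.4% of their mean WT level. Hbegf, another ligand of EGFR, stood at 173% of its WT mean and Egfr at 130%. Values are read counts normalised for library size with DESeq2 size factors, and a gene was called at an adjusted p under 0.05 (DESeq2 Wald test, Benjamini-Hochberg over all genes tested). Under the same rule 15.2% of all genes tested were lower and 15.9% were higher. Groups without overlap, every Pbrm1 cKO library below every WT library, were seen in 24.6% of all genes tested and in 2 of the 10 (Ereg and Tgfa), and the opposite order in 24.0% of all genes and again in 2 of the 10 (Hbegf and Egfr). The median log2 fold change was -0.08 over the 10 genes and 0.00 over all genes tested.

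**Figure D1:**
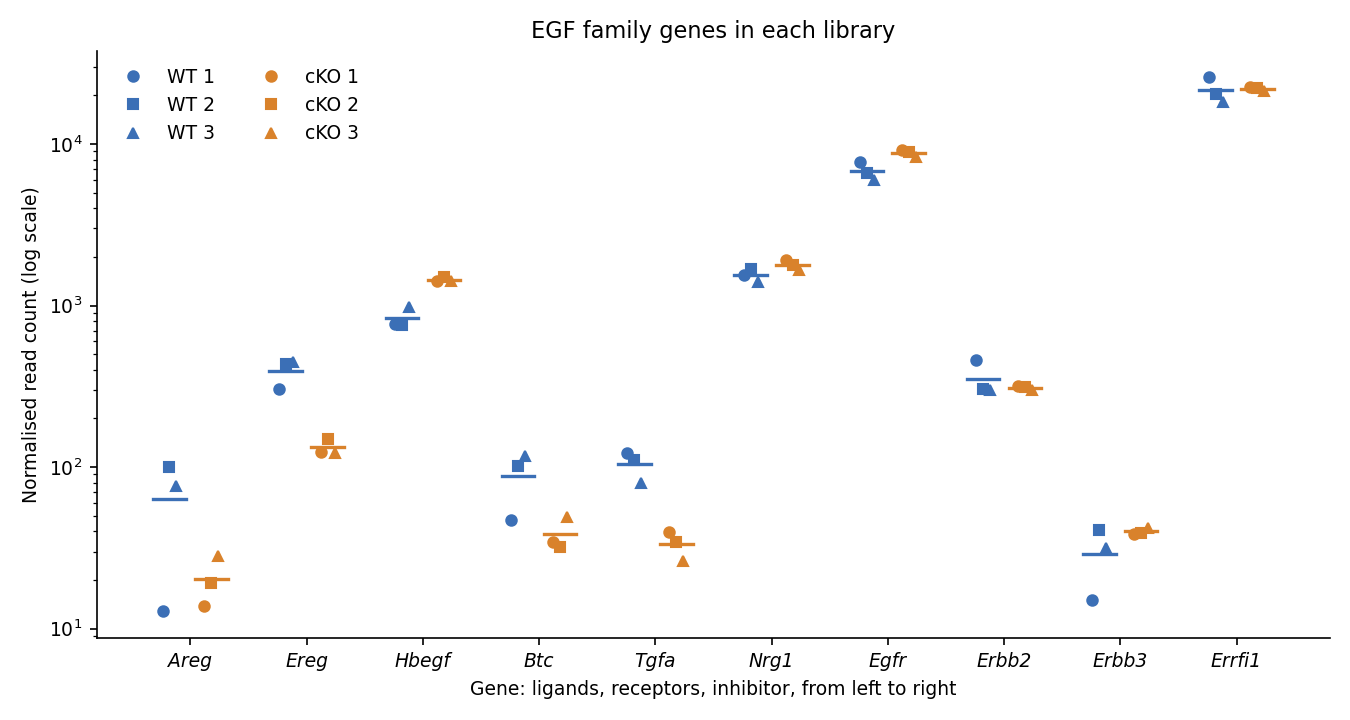
Normalised read count (log axis) of each of the 10 genes in the 3 WT (blue) and 3 Pbrm1 cKO libraries (orange), with a marker shape per replicate number and a horizontal line at each group mean. Ereg and Tgfa are lower and Hbegf and Egfr higher in every Pbrm1 cKO library than in any WT library, while WT replicate 1 is the lowest library for Areg.

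Total counts lay between 13253575 and 18338667 per library, and 3 counts, the limit that a count of 0 allows, correspond to 0.164 to 0.226 counts scaled to library size (CPM), for counting error only. Pbrm1, the deleted gene, averaged 1472 ± 178 normalised counts for WT but 436 ± 33.9 for Pbrm1 cKO (SD, n = 3 each), with a log2 fold change of -1.76 (SE 0.128, adjusted p = 5.2e-40). Stromal markers were high in both groups, but of 14 on the list 7 were lower in Pbrm1 cKO cells and 1 was higher. The higher one was Pdgfra, at 942 to 1020 CPM in WT and 1130 to 1220 CPM in Pbrm1 cKO libraries, whereas Hoxa10 had 104 to 128 and 73.7 to 80.5 CPM. Other cell types were also present and differed between groups. The summed level of 16 leukocyte markers was 295 to 644 CPM in WT and 2657 to 2797 CPM in Pbrm1 cKO libraries, where 13 of the 16 were higher, with Ptprc, the pan-leukocyte phosphatase, at 11.6 to 25.1 and 73.0 to 77.7 CPM. For 18 epithelial markers the sums were 137 to 252 and 278 to 293 CPM, and 5 of the 18 were higher in Pbrm1 cKO cells, among them Cdh1 (3.53 to 12.6 and 16.8 to 19.9 CPM) but not Epcam (4.54 to 20.2 and 13.9 to 18.6 CPM). Sums of 12 endothelial markers were 132 to 388 and 137 to 152 CPM, and in WT replicate 1 (132 CPM) they stood at the Pbrm1 cKO level, while WT replicates 2 and 3 had 388 and 340 CPM. Single markers of this list did not all follow the sum, since Cdh5 was highest in WT replicate 1 (52.2 CPM, against 13.0 to 13.9 CPM in Pbrm1 cKO libraries). Of the 12, 4 were lower in Pbrm1 cKO cells, 7 were not called and 1 was higher (Vwf, from a mean of 52.75 to 196 normalised counts). Schwann cell markers summed to 24.6 to 26.3 and 64.6 to 68.8 CPM, though the defining gene Sox10 had at most 1 count in any library. For 12 smooth muscle markers the sums were 3848 to 4167 and 3681 to 3817 CPM, with 5 of the 12 lower in Pbrm1 cKO cells, among them Acta2 (177 to 219 and 102 to 106 CPM). Sums were 2.89 to 4.83 and 5.59 to 7.31 CPM for mesothelium and 7688 to 8812 and 6064 to 6427 CPM for 14 stromal markers.

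Ereg, which encodes epiregulin, gave the firmest reading among the ligands that were lower. WT replicates 1 to 3 held 304, 435 and 448 normalised counts, against 124, 150 and 123 for the Pbrm1 cKO replicates. The groups did not overlap, and the highest Pbrm1 cKO library was below WT replicate 1, the lowest of its group. The mean fell from 395 ± 79.8 to 133 ± 15.4 (SD, n = 3 each), a log2 fold change of -1.57 (SE 0.195, adjusted p = 2.26e-14). It remained lower and past the threshold in 16 of 16 alternative analyses, with log2 fold changes from -1.73 to -1.48. In bulk RNA, fewer cells of a type and less transcript per cell cannot be told apart. Ereg lies at chr5:91074622-91093646 on the plus strand (GRCm38) and has an antisense gene on the other strand, which the stranded counting kept separate.

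Tgfa encodes TGF-alpha, a ligand that binds EGFR alone. WT libraries held 122, 110 and 80.0 normalised counts and Pbrm1 cKO libraries 39.5, 34.4 and 26.3. Every Pbrm1 cKO library was below every WT library, and here WT replicate 1 was the highest of its group, unlike Areg, Ereg and Btc. The mean went from 104 ± 21.6 to 33.4 ± 6.65 (SD, n = 3 each), with a log2 fold change of -1.64 (SE 0.294, adjusted p = 3.37e-07). All 16 alternatives kept the call, between -1.80 and -1.49. Tgfa lies at chr6:86195223-86275719 on the plus strand.

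Areg encodes amphiregulin, a progesterone-induced gene of the uterine epithelium. The 3 WT replicates held 12.8, 99.9 and 76.8 normalised counts, in order of number, and the Pbrm1 cKO replicates 13.8, 19.2 and 28.2. WT replicate 1 was thus the lowest of all 6 libraries, and the other 2 WT libraries lay above all Pbrm1 cKO libraries. On average Areg went from 63.2 ± 45.1 to 20.4 ± 7.24 (SD, n = 3 each), a log2 fold change of -1.63 with a wide 95% interval of -2.78 to -0.48 (SE 0.585, adjusted p = 0.0204). That call was lost with edgeR (adjusted p = 0.0559), with limma voom by group (adjusted p = 0.102), and when WT replicate 2 (log2 fold change -1.14, adjusted p = 0.245), WT replicate 3 (-1.47, adjusted p = 0.106), Pbrm1 cKO replicate 1 (-1.41, adjusted p = 0.129) or Pbrm1 cKO replicate 2 (-1.59, adjusted p = 0.0934) was left out. Without WT replicate 1 the difference was -2.11. Epithelial and endothelial marker sums were also lowest among WT libraries in replicate 1 (137 and 132 CPM), and in the Pbrm1 cKO libraries the sums were 278 to 293 CPM for epithelium and 137 to 152 CPM for endothelium. The part of these cell types in the Areg values was not tested.

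Btc encodes betacellulin, which binds EGFR and ERBB4. WT replicates held 47.0, 101 and 118 normalised counts and Pbrm1 cKO replicates 34.5, 32.0 and 48.8. Only WT replicate 1 overlapped the other group, since it fell just under Pbrm1 cKO replicate 3. The mean went from 88.6 ± 37.0 to 38.4 ± 9.07 (SD, n = 3 each), a log2 fold change of -1.21 (SE 0.368, adjusted p = 0.00512). Leaving out WT replicate 2 (adjusted p = 0.0549), WT replicate 3 (0.0746) or Pbrm1 cKO replicate 2 (0.0593) ended the call. In the endothelial marker sum, too, WT replicate 1 (132 CPM) stood near the Pbrm1 cKO libraries (137 to 152 CPM), and the part of endothelial cells in the Btc values was not tested. Btc lies at chr5:91357261-91402994 on the minus strand, and Areg at chr5:91139599-91148432 on the plus strand.

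**Figure D2:**
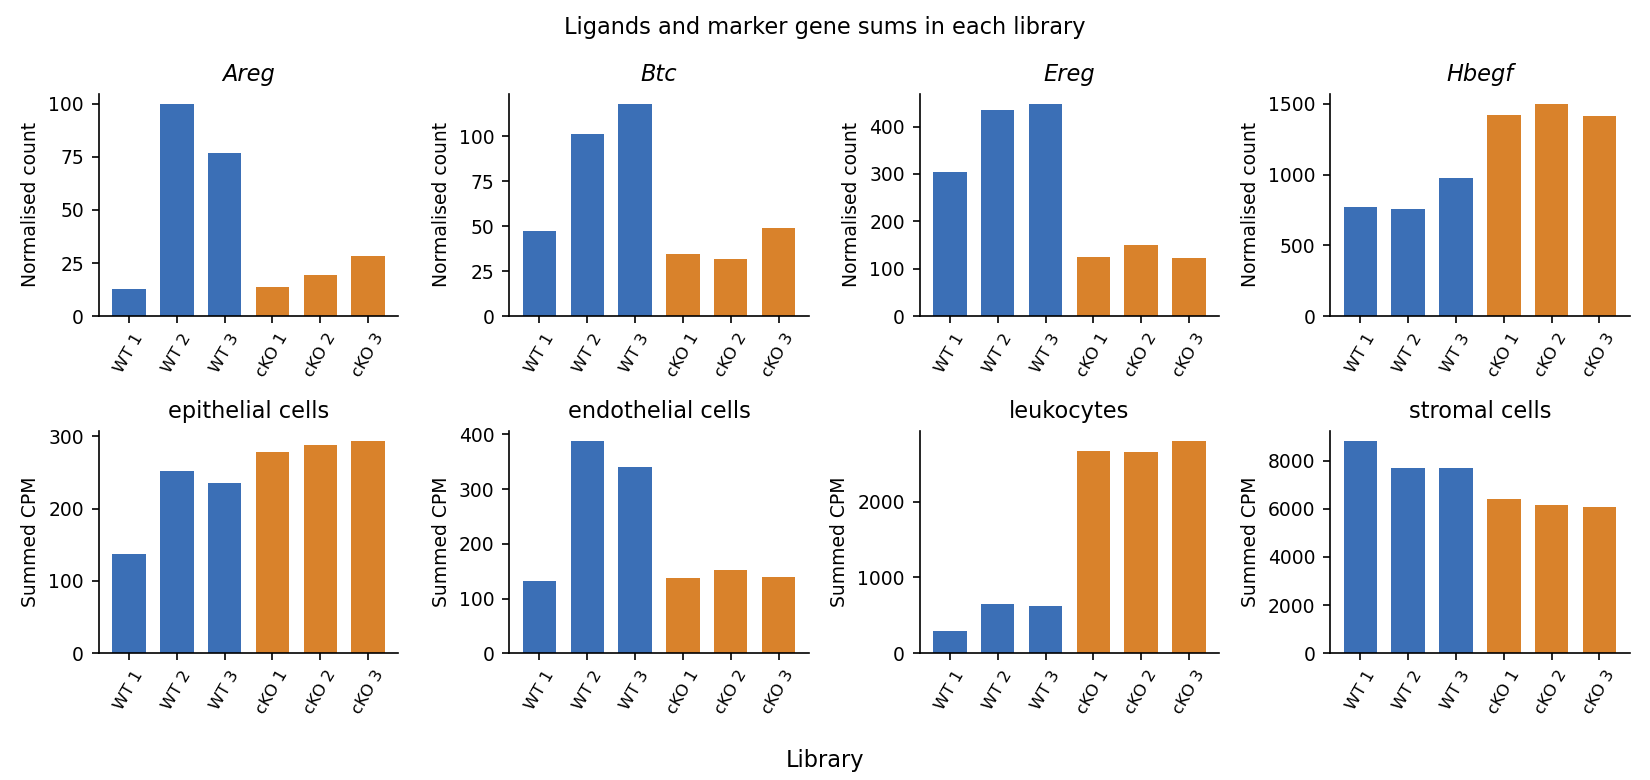
Normalised counts of 4 ligands (upper row) and summed CPM of 4 marker lists (lower row) in each library, WT in blue and Pbrm1 cKO in orange, all axes from 0. WT replicate 1 is the lowest WT library for Areg (12.8), Btc (47.0) and Ereg (304) and for the epithelial (137 CPM), endothelial (132 CPM) and leukocyte (295 CPM) sums.

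Hbegf encodes HB-EGF, which binds EGFR and ERBB4 and, as a precursor on the membrane, can act on neighbouring cells. It was the ligand that moved the other way. WT replicates had 772, 754 and 974 normalised counts where Pbrm1 cKO replicates had 1422, 1498 and 1411, so the groups were far apart and the Pbrm1 cKO libraries close to each other. The mean rose from 833 ± 122 to 1444 ± 47.5 (SD, n = 3 each), a log2 fold change of 0.79 (SE 0.125, 95% interval 0.55 to 1.04, adjusted p = 3.77e-09). The call held in 15 of 16 alternatives and was lost only when the test asked for more than 0.58 on the log2 scale. Leukocyte markers were higher in the same libraries (295 to 644 CPM in WT against 2657 to 2797 CPM), and their part in the Hbegf level was not tested.

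Nrg1 encodes neuregulin 1, the most abundant neuregulin transcript here. WT replicates read 1557, 1685 and 1391 normalised counts and Pbrm1 cKO replicates 1907, 1782 and 1653. The ranges overlapped, WT replicate 2 lying above Pbrm1 cKO replicate 3. Means of 1544 ± 147 and 1781 ± 127 (SD, n = 3 each) gave a log2 fold change of 0.20 (SE 0.112, adjusted p = 0.16), whose 95% interval of -0.01 to 0.42 bounds the difference. Nrg1 did not pass the threshold in any of the 16 alternatives. It lies at chr8:31814551-32884029 on the minus strand.

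Epgn, Egf, Nrg2, Nrg3 and Nrg4, the remaining genes for ligands of the family, were scarce. Epgn (epigen) had 5, 10 and 10 raw counts over the WT replicates and 2, 3 and 3 over those of Pbrm1 cKO, 25 against 8 in all, which gives a ratio of 0.265 with a counting interval of 0.103 to 0.607. Its adjusted p was 0.0891, so it was not called, although each Pbrm1 cKO library was below each WT library, as for 24.6% of all genes tested. Egf had 10 counts in the WT and 25 in the Pbrm1 cKO libraries (ratio 2.07, counting interval 0.962 to 4.84, adjusted p = 0.391), and Nrg2 had 21 and 23. For Egf each Pbrm1 cKO library was above each WT library, as for 24.0% of all genes tested. With 4 and 3 counts Nrg4 was not tested. Nrg3 and the receptor gene Erbb4 had 0 counts in all 6 libraries, which allows up to 0.226 CPM in the shallowest library.

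**Figure D3:**
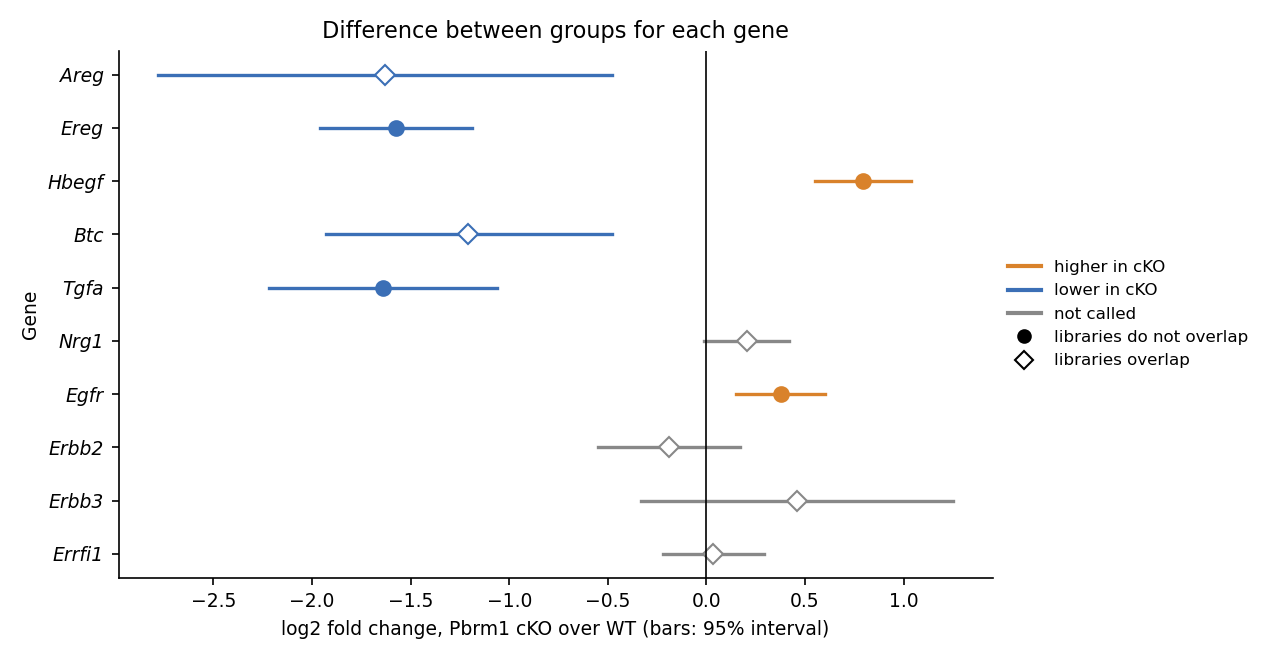
Log2 fold change of Pbrm1 cKO over WT with its 95% interval for each gene, coloured by the call, with filled circles where the libraries of the groups do not overlap and open diamonds where they do. Ereg (-1.57) and Tgfa (-1.64) lie well below 0 with short intervals, Areg (-1.63) has the widest interval of the called genes, and Hbegf (0.79) and Egfr (0.38) lie above 0.

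Egfr, the receptor shared by most of the ligands, was higher in the Pbrm1 cKO libraries. By replicate number, WT libraries had 7793, 6639 and 5991 normalised counts, and Pbrm1 cKO libraries had 9229, 8941 and 8364. The groups did not overlap, with the nearest libraries being WT replicate 1 and Pbrm1 cKO replicate 3. Egfr rose from 6808 ± 913 to 8845 ± 441 (SD, n = 3 each), a log2 fold change of 0.38 (SE 0.114, 95% interval 0.15 to 0.60, adjusted p = 0.00467). This call was lost when a trend of the ratios on gene length was removed (0.22, adjusted p = 0.116) and when Pbrm1 cKO replicate 1 was left out (0.35, adjusted p = 0.0574). The gene spans chr11:16752203-16918158 on the plus strand, with an antisense gene opposite it.

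Erbb2, the receptor that signals as a partner of the others, stood at 457.5, 304 and 298 normalised counts across the WT replicates and at 317, 312 and 301 across the Pbrm1 cKO replicates. WT replicate 1 stood above the other 5 libraries, which lay between 298 and 317. The log2 fold change was -0.19 (SE 0.185, 95% interval -0.55 to 0.17, adjusted p = 0.495), and without WT replicate 1 it was 0.04. It lies at chr11:98412470-98437716 on the plus strand and Erbb3 at chr10:128567523-128589652 on the minus strand. Erbb3 encodes the neuregulin receptor with a weak kinase, a gene mostly of epithelia and Schwann cells. It was low throughout, at 15.0, 41.1 and 31.4 normalised counts for WT replicates and 38.5, 39.2 and 42.2 for Pbrm1 cKO replicates. WT replicate 1 was the lowest library for Erbb3 as it was for the epithelial marker sum (137 CPM), and the part of epithelial cells in it was not tested. Means of 29.1 ± 13.2 and 40.0 ± 2.00 (SD, n = 3 each) were within the spread of the WT libraries (log2 fold change 0.46, 95% interval -0.33 to 1.25, adjusted p = 0.442).

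Errfi1 encodes MIG6, which is induced by EGFR signalling and by progesterone, and which binds the EGFR kinase and blocks it. WT replicates carried 25840, 20480 and 18120 normalised counts, the Pbrm1 cKO replicates 22520, 22380 and 21160. The Pbrm1 cKO libraries all fell inside the WT range. Means of 21480 ± 3957 and 22020 ± 752 (SD, n = 3 each) gave a log2 fold change of 0.04 (SE 0.131, adjusted p = 0.882), and the 95% interval of -0.22 to 0.29 limits the size of any difference. The sign changed when WT replicate 2 or WT replicate 3 was left out (-0.001 and -0.077). Areg, with the same 3 motif types before its start as 1 of the 2 Errfi1 windows, was lower on average in the same Pbrm1 cKO libraries. Errfi1 lies at chr4:150853919-150868892 on the plus strand.

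Levels were compared between genes as TPM, which scales counts to library size and corrects for gene length. Within the WT libraries the order by mean TPM was Errfi1 (1133 ± 232), Egfr (113 ± 17.4), Hbegf (66.2 ± 10.0), Nrg1 (28.1 ± 2.40), Ereg (18 ± 3.32), Erbb2 (12.8 ± 3.59), Areg (9.68 ± 6.80), Btc (3.68 ± 1.5), Tgfa (3.02 ± 0.657) and Erbb3 (0.905 ± 0.391, SD, n = 3 each). Mean ± SD overlapped within the adjacent pairs Ereg and Erbb2, Erbb2 and Areg, Areg and Btc, and Btc and Tgfa, and the wide spread of Areg also overlapped Ereg and Tgfa. Ereg did not overlap Btc or Tgfa. In Pbrm1 cKO libraries the order was Errfi1 (1332 ± 83.8), Egfr (169 ± 13.4), Hbegf (132 ± 6.52), Nrg1 (37.3 ± 3.75), Erbb2 (12.9 ± 0.711), Ereg (6.95 ± 0.869), Areg (3.61 ± 1.17), Btc (1.83 ± 0.380), Erbb3 (1.44 ± 0.0299) and Tgfa (1.12 ± 0.254). Of the neighbours in this order only Btc and Erbb3 overlapped by mean ± SD. Ereg was therefore above Erbb2 on average in WT and below it in Pbrm1 cKO libraries, but in WT replicate 1 Ereg (14.2 TPM) was already below Erbb2 (17.0 TPM). TPM values of the 2 groups are not on the normalised scale, since TPM put every gene of the Pbrm1 cKO libraries 0.20 higher on the log2 scale, so TPM is used here only within a library.

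Shares within a library do not depend on that shift. Of the summed TPM of the 7 EGFR ligand genes (Areg, Ereg, Hbegf, Btc, Tgfa, Epgn and Egf), Hbegf made up 73.6%, 57.6% and 65.5% over the WT replicates and 91.3%, 90.5% and 89.5% over the Pbrm1 cKO replicates. Ereg took 16.7% to 19.1% in WT and 4.48% to 5.22% in Pbrm1 cKO libraries, ranges that do not overlap. The share of Areg was 2.39% in WT replicate 1, 14.9% in WT replicate 2 and 10.1% in WT replicate 3, against 1.73% to 3.49% in Pbrm1 cKO libraries. Btc shares were 2.36% to 4.16% in WT and 1.01% to 1.62% in Pbrm1 cKO libraries, a separation that also reflects the larger Hbegf part of the sum, since Btc itself had 47.0 normalised counts in WT replicate 1 and 48.8 in Pbrm1 cKO replicate 3. Tgfa took 1.97% to 4.25% and 0.609% to 0.927%. Hbegf was thus the main EGFR ligand transcript in every library and took a larger share in each Pbrm1 cKO library than in any WT library. Among receptors, Egfr made up 88.4% to 90.0% of the summed TPM in WT and 91.9% to 92.4% in Pbrm1 cKO libraries, and Erbb2 8.96% to 11.3% and 6.89% to 7.20%, shares that also move with Egfr, while Erbb2 itself was not called (-0.19, adjusted p = 0.495). Erbb3 stayed at or below 1.05% in every library. These shares restate the counts of each gene, and no test was made on them.

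**Figure D4:**
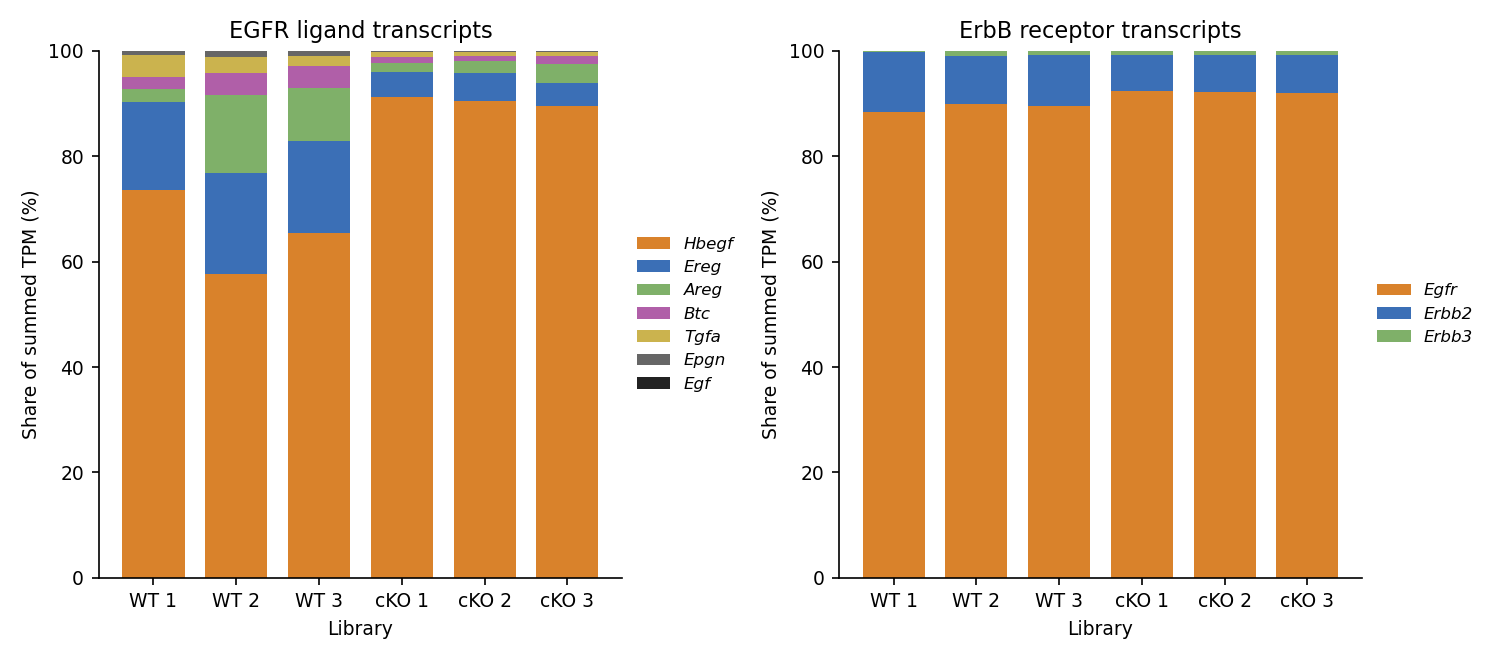
Share (%) of each gene in the summed TPM of the EGFR ligand genes (left) and of the ErbB receptor genes (right), 1 bar per library. Hbegf fills 57.6% to 73.6% of the ligand bar in WT and 89.5% to 91.3% in Pbrm1 cKO libraries, and Egfr fills at least 88.4% of every receptor bar.

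Epgn, Ereg, Areg and Btc lie next to each other on chromosome 5, within a span of 376 kb (chr5:91027464-91402994). All 3 of them that were called were lower in Pbrm1 cKO cells, and Epgn had a ratio in the same direction. A window from 250 kb before to 250 kb after the cluster held 10 protein-coding genes, 8 of them with a mean of at least 20 normalised counts, of which 4 were lower (Ereg, Areg, Btc and Parm1) and 0 higher by DESeq2, with 15.2% lower and 15.9% higher among all genes tested. The window was drawn around Ereg, Areg and Btc, so these 3 restate the results above, and of the other 5 genes 1 was lower (Parm1). Without WT replicate 2, WT replicate 3 or Pbrm1 cKO replicate 2, neither Areg nor Btc was called. At an unadjusted p under 0.05, 0 were higher with DESeq2 or edgeR and 1 with limma voom by group. Parm1, a membrane mucin-like protein encoded at chr5:91517615-91626894 beyond Btc, gave 213, 248 and 237 normalised counts for the WT replicates but 24.7, 16.8 and 21.6 for those of Pbrm1 cKO. Its mean fell from 232 ± 17.8 to 21.0 ± 3.97 (SD, n = 3 each), and the log2 fold change was -3.48 (SE 0.253, adjusted p = 1.83e-40), further than any of the ligands. On the other side of the cluster, Mthfd2l, a mitochondrial folate enzyme, went from 268 ± 12.4 to 210 ± 15.6 without passing the threshold (-0.35, adjusted p = 0.0607). The chemokine genes Cxcl3 (0.62, adjusted p = 0.43), Cxcl1 (-0.27, adjusted p = 0.855) and Cxcl2 (-0.07, adjusted p = 0.951) were not called, and WT libraries differed widely in them, with Cxcl1 at 29.9, 151 and 288 normalised counts. Genes of 1 neighbourhood are not independent of each other, and no test of the cluster as a whole was made.

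Among genes that release the ligands, more were higher than lower. Of 12 genes for shedding and maturation, 5 were higher, 1 was lower and 6 were not called, with a median log2 fold change of 0.27, where 15.9% of all genes tested were higher and 15.2% lower. Adam17, the main sheddase of Areg, Ereg, Hbegf and Tgfa, was higher (868 to 1612 normalised counts, 0.89, adjusted p = 2.12e-20), as was Rhbdf2, the iRhom that carries ADAM17 to the cell surface (292 to 847, 1.54, adjusted p = 1.47e-38). Adam8, a protease abundant in myeloid cells, had a log2 fold change of 1.36 (adjusted p = 0.000491) and Adam12 of 0.33 (adjusted p = 0.0254). Adam15 was the lower gene (708 to 449, -0.66, adjusted p = 2.58e-06). Adam10, the sheddase of Btc, had 726 and 946 normalised counts and did not pass the test (0.38, adjusted p = 0.216). Leukocyte markers were higher in the same libraries, and their part in the levels of Rhbdf2, Adam8 and Adam17 was not tested.

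Downstream of the receptors, 6 of 24 adaptor and signalling genes were higher, 4 lower and 14 not called, with a median of 0.21 (15.9% higher and 15.2% lower among all genes tested). Leukocyte markers were higher in the same libraries (13 of 16, summing to 295 to 644 CPM in WT and 2657 to 2797 CPM in Pbrm1 cKO), and their part in this list and in those of attenuation and feedback was not tested. The adaptor Grb2 had the highest log2 fold change (1.16, SE 0.46, adjusted p = 0.04), followed by the docking protein Gab2 (0.93, adjusted p = 6.42e-11). At the other end stood Hras (-0.50, adjusted p = 3.23e-06) and the PI3K regulatory subunit Pik3r2 (-0.44, adjusted p = 0.00655).

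Of 18 genes that attenuate the receptors or direct their turnover, 11 were higher, 1 was lower and 6 were not called, with a median of 0.45, against backgrounds of 15.9% higher and 15.2% lower among all genes tested. Cblb, a ubiquitin ligase for EGFR, rose from 456 to 831 normalised counts (0.86, adjusted p = 1.72e-09), and Lrig3, of the LRIG family of receptor antagonists, from 112 to 175 (0.64, adjusted p = 0.00272). Lrig1 of the same family was higher too (2109 to 2951, 0.48, adjusted p = 7.43e-08). Erbin, an ERBB2-binding scaffold, had the smallest log2 fold change of those higher (0.30, adjusted p = 0.00337), and the ERBB3 ubiquitin ligase Rnf41 was the gene that fell (-0.35, adjusted p = 0.00229). Errfi1, the inhibitor described above, was not in this list, and its own difference was 0.04. Of 14 feedback genes of ERK signalling, 7 were higher and 0 lower by DESeq2 (0 also by edgeR, by limma voom and at an unadjusted p under 0.05), among them Dusp5 (1.79, adjusted p = 4.79e-80) and Spry2 (1.23, adjusted p = 5.09e-13) at the top and Spred2 (0.60, adjusted p = 0.000454) and Phlda1 (0.45, adjusted p = 2.78e-05) at the lower end, while the ERK phosphatase gene Dusp6 had a log2 fold change of -0.12 (adjusted p = 0.426). These counts describe the lists, which were drawn up with results of these data known. The trend on gene length, whose removal ended the call of Egfr, was not removed for them.

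**Figure D5:**
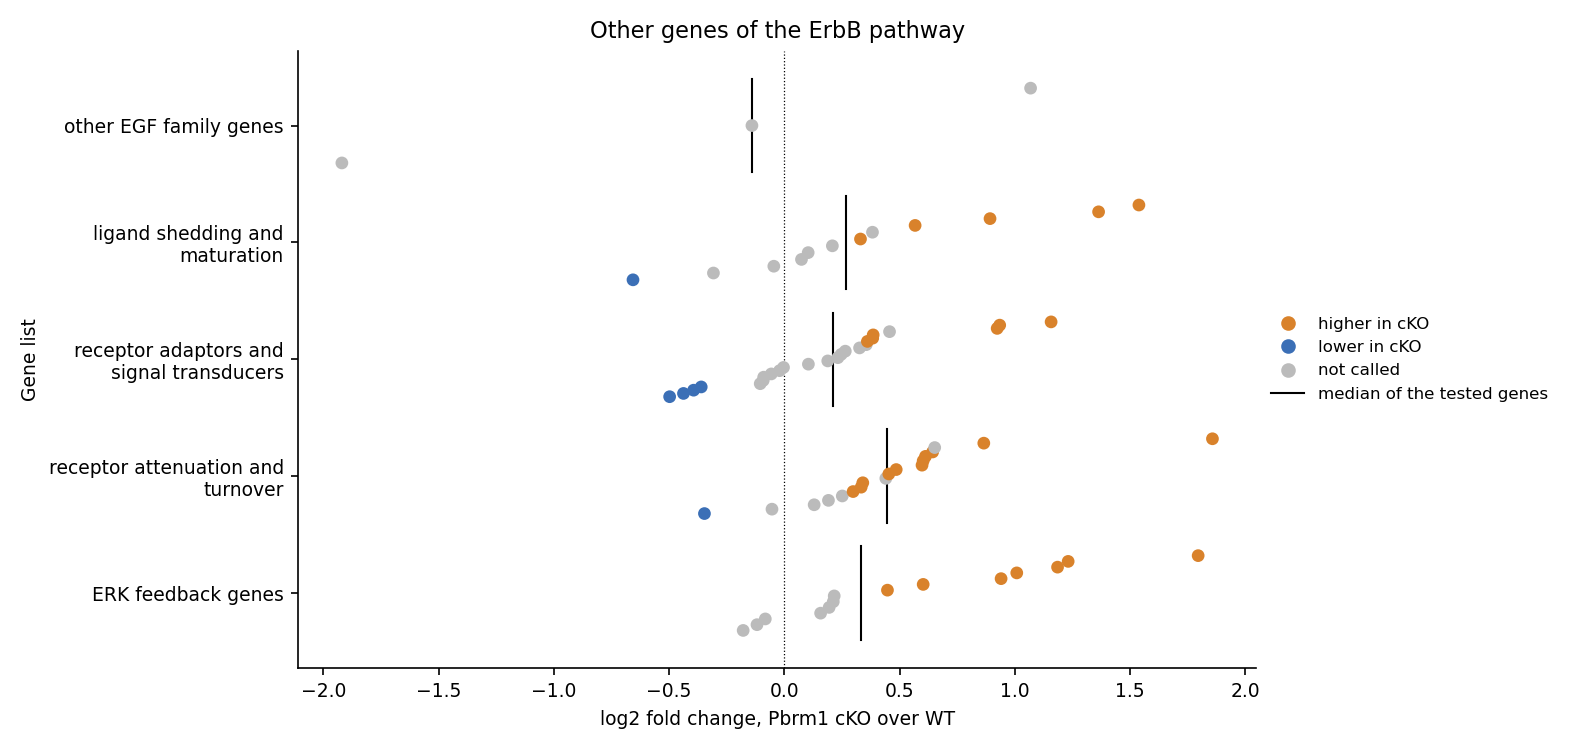
Log2 fold change of Pbrm1 cKO over WT for each tested gene of 5 lists of the ErbB pathway, coloured by the call, with a black line at the median of each list. Genes of receptor attenuation and turnover lie mostly to the right of 0 (median 0.45), and the shedding genes (median 0.27) spread from Adam15 (-0.66) to Rhbdf2 (1.54).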

How the data were processed

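RNA-seq libraries of 3 WT and 3 Pbrm1 cKO samples were analysed. Single-end reads were trimmed by the authors (cutadapt), who aligned them with HISAT2 to GRCm38 and counted them per gene of GENCODE mouse release 18 with featureCounts 1.6.4 on the reverse strand. The deposited table holds these raw counts, and reads shared by several genes or places do not enter a count by the default of that program. The labels describe a total RNA kit with depletion and the methods of the study poly(A) selection, so the RNA classes captured are not settled. The study also used DESeq2, with another filter. Tests here used DESeq2 1.42.0 in R 4.3.3 on all genes (Wald test, no covariates, unshrunken log2 fold changes of Pbrm1 cKO over WT, adjusted p under 0.05). TPM was computed from the counts and the deposited gene lengths, and CPM from library totals. Counting intervals are exact 95% intervals. Scripts were tested on simulated data. Alternatives used edgeR 4.0.16, limma 3.58.1, other filters, and each library left out.

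The members and lists were chosen with earlier results of these data known. Named are the 10 members, the other EGF family genes, the called genes with the 2 highest and 2 lowest log2 fold changes of each list (mean count of at least 20), coding genes around the chromosome 5 cluster, Pbrm1 and leading markers. Adam17, Adam10, Lrig1 and Dusp6 were added after their values were seen. Some genes of the lists are not reported here. Promoters and motifs come from RefSeq entries.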

Additional observations from a re-analysis of the deposited data

How the results depend on the processing

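Among the 10 genes, Ereg and Tgfa kept their call in all 16 alternatives and Hbegf in 15. With each library left out in turn, between 1 and 2 genes were higher and between 2 and 4 lower. Without WT replicate 1 the counts were 2 higher and 4 lower, and without WT replicate 2, WT replicate 3 or Pbrm1 cKO replicate 2 only 2 were lower. Asking DESeq2 for changes beyond 0.58 (log2, adjusted p under 0.1) left 0 members higher and 2 lower (Ereg and Tgfa), and 699 genes higher and 563 lower among all genes. In that test 0 members were higher at an unadjusted p under 0.05 too (Hbegf adjusted p = 0.781), whereas edgeR and limma, tested against 0, called 2 members higher each. The filter values that the study states (over 1.5-fold, p under 0.01, adjusted p under 0.1) were set as cuts on the results of the DESeq2 test against 0. They left 1 member higher and 4 lower, with 1665 genes higher and 1452 lower. Whether the study applied them as cuts or within the test is not settled here. Removing a trend on gene length left 1 member higher (Hbegf). Areg lost its call in 7 of 16 alternatives, and Btc and Egfr in 4 each. Signs changed only for genes that were not called, with leave-out log2 fold changes of -0.302 to 0.04 for Erbb2 and -0.077 to 0.189 for Errfi1. Deviations of same-numbered libraries correlated at 0.114, -0.052 and 0.003, and those of the other pairs at -0.081 to 0.113. These values show no pairing by replicate number but cannot exclude a shared day, litter or batch. With a replicate block 2 members were higher and 4 lower, as without it, and 2175 and 1828 genes were called. Areg rested on 12 to 90 and Erbb3 on 14 to 49 raw counts per library, and Tgfa, which kept its call throughout, on 28 to 114. With all libraries randomly reduced to the depth of the smallest, Areg kept its call in DESeq2 (log2 fold change -1.628, adjusted p = 0.0168). The part of depth in these readings was not tested further. Other scalings moved the median of all genes by about 0.01 or less.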
